A study of Drosophila melanogaster with 8 samples.

Results

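The proteasome subunit genes of *Drosophila melanogaster* were described in peak lists of Cph NanoDam from the adult midgut. A gene was included when its name in the Ensembl annotation of BDGP6 starts with Prosalpha, Prosbeta, Rpn or Rpt followed by a digit. Of the 13968 protein-coding genes on the named chromosomes, 48 met this rule: 32 genes of the constitutive subunits and 16 paralogues, whose names end in T or R with or without a further digit. The comparison of Cph NanoDam with its control asked where peaks lay at these genes with and without tagged Cph.

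In Cph NanoDam flies, a CphYFP; UAS-NanoDam line had been crossed with *esgTS*. In NanoDam-only control flies, a UAS-NanoDam line without tagged Cph had been crossed with the same driver. All flies were reared at 18 °C, and adults of 3 to 5 days were kept at 29 °C for 17 h. NanoDam is a Dam methylase joined to a nanobody that recognises GFP and YFP, and it methylates GATC sites near the tagged protein. The *esgTS* driver limits NanoDam to intestinal progenitors, whereas DNA was extracted from whole midguts, 30 pooled per sample. There were 4 libraries of each genotype. Replicates 3 and 4 of both genotypes are labelled as batch 2, while the labels of replicates 1 and 2 give no batch and call them biological. P-values measure only the spread between these libraries.

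The lists called without a control (1 per library, 8 in all) held 24779 to 30062 peaks. The 4 Cph-over-control lists, each from a Cph library set against the control of its own number, held 17453 to 21115 peaks. Libraries had 55557571 to 107278227 reads for Cph NanoDam and 70573626 to 125721243 reads for the control. Of 13 marker genes of different cell types, the progenitor genes *esg* and *Notch*, the enterocyte genes *Myo31DF*, *nub* and *betaTry*, the enteroendocrine gene *pros* and the germline gene *bam* each had a promoter peak in all 8 libraries, whereas *Delta* and *nos* had none. Promoter peaks were called in 3 Cph and 4 control libraries at *klu*, 3 and 1 at *AstC*, 0 and 2 at *Tk* and 0 and 3 at *vas*, and these counts were not tested between the genotypes. Peaks are methylated regions and not a measure of expression, and the part of each cell type in them was not tested.

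The proteasome degrades proteins that carry ubiquitin. Its core particle is a barrel of stacked rings, in which alpha subunits gate the entrance and beta subunits form the inner chamber with the proteolytic sites. A regulatory particle caps the barrel. Its Rpt subunits are ATPases that unfold substrates and thread them into the core, and its Rpn subunits bind ubiquitin, remove it or hold the particle together. Many *Drosophila* subunits have a paralogue, and several paralogues are known for expression in the male germline. Cph is the fly homologue of the mammalian zinc finger transcription factors BCL11A and BCL11B.

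Promoter sequences are shown for 6 genes to make visible the letters whose counts follow, in 3 constitutive genes with a match to TATCGATA and in 3 genes without one. Capitals mark TATCGATA, the DNA replication-related element (DRE) bound by the transcription factor DREF, and GATC, the site that Dam methylates. Each run ends 1 base before the 5′-most transcription start, holds no annotated exon, and was read 5′ to 3′ on the strand of the gene from the release 6 genome (RefSeq). *Prosalpha6* (chr2L:10221231-10221350, plus strand), *Prosbeta2* (chr3L:14999831-14999950, plus strand) and *Prosbeta6* (chr3L:16610419-16610538, minus strand) held the DRE. *Rpn11* (chr2L:5059791-5059910, minus strand), *Prosalpha3T* (chr3R:31123416-31123535, minus strand) and *Prosbeta2R1* (chrX:5808834-5808953, plus strand) did not.
Prosalpha6: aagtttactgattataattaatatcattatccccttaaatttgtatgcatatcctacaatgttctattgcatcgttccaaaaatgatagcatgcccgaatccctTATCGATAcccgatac
Prosbeta2: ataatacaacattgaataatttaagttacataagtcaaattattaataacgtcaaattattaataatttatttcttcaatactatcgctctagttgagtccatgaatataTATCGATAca
Prosbeta6: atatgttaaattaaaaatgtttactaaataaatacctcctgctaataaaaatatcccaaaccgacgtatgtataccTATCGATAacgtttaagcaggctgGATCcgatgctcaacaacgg
Rpn11: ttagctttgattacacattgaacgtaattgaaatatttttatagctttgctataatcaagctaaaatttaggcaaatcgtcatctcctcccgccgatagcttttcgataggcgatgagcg
Prosalpha3T: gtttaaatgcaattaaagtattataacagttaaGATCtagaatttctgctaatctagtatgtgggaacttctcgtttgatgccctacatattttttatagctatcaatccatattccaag
Prosbeta2R1: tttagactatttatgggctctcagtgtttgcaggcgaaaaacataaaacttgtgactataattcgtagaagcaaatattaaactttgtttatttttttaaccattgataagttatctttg

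Motifs were searched on both strands from 250 bases before to 50 bases after the 5′-most start. TATCGATA, which reads the same on both strands and does not contain GATC, was found at 12 of 32 constitutive genes (37.5%), at 0 of 16 paralogues and at 9.36% of all 13968 promoters. The 12 genes were *Prosalpha3*, *Prosalpha5*, *Prosalpha6*, *Prosbeta1*, *Prosbeta2*, *Prosbeta6*, *Rpn3*, *Rpn7*, *Rpn9*, *Rpn12*, *Rpn13* and *Rpt5*, so both particles were represented. GATC was found at 12 of 32 constitutive genes, 7 of 16 paralogues and 45.2% of all promoters. TGACCA, described for human BCL11A, was found at 7 of 32 constitutive genes, 1 of 16 paralogues and 15.1% of all promoters. TGACNNNGC, the antioxidant response element, was found at 5 of 32, 1 of 16 and 8.62%. A match is a match of letters and not a site of binding. Promoter peaks in all 8 libraries were called at 5 of the 12 constitutive genes with a DRE and at 7 of the 20 without, against 45.1% and 38.0% of all genes with and without it. Cph-over-control peaks in all 4 replicates were called at 3 of 12 and 8 of 20, against 46.7% and 36.9% of all genes.

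A promoter window here is 500 bp on either side of each annotated transcription start, and at least 1 base of overlap counted as a peak. Promoter peaks were called in all 8 libraries at 12 of 32 constitutive genes (37.5%) and 5 of 16 paralogues (31.2%), against 38.7% of all protein-coding genes. They were called in none of the 8 at 10 constitutive genes (31.2%) and 7 paralogues (43.8%), against 34.9% of all genes. The shares of constitutive genes with a peak in all 8 were thus near that over all genes. With windows of 250 bp and 1000 bp, promoter peaks in all 8 libraries were called at 7 and 22 constitutive genes and at 1 and 6 paralogues, against 26.4% and 55.0% of all genes. Among the subcomplexes, the non-ATPase subunits of the regulatory particle had promoter peaks in all 8 libraries at 7 of 12 genes. These were *Rpn1*, which scaffolds the base of the particle, *Rpn3*, *Rpn6* and *Rpn9* of the lid, the deubiquitinase *Rpn11*, its partner *Rpn8* and the ubiquitin receptor *Rpn13*. Of the 6 ATPase genes, *Rpt1* and *Rpt5* had them. In the core particle they were called at 2 of 7 alpha subunit genes (*Prosalpha1* and *Prosalpha2*) and at 1 of 7 beta subunit genes (*Prosbeta2*, which carries the trypsin-like site). The subcomplexes were not matched for the width of the windows, which is larger at genes with more than 1 transcription start. Of the non-ATPase genes 50% have 1 start, against 66.7% of the ATPase genes and 85.7% of the alpha and of the beta subunit genes. The map of peaks by gene and list shows all members.

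**Figure D1:**
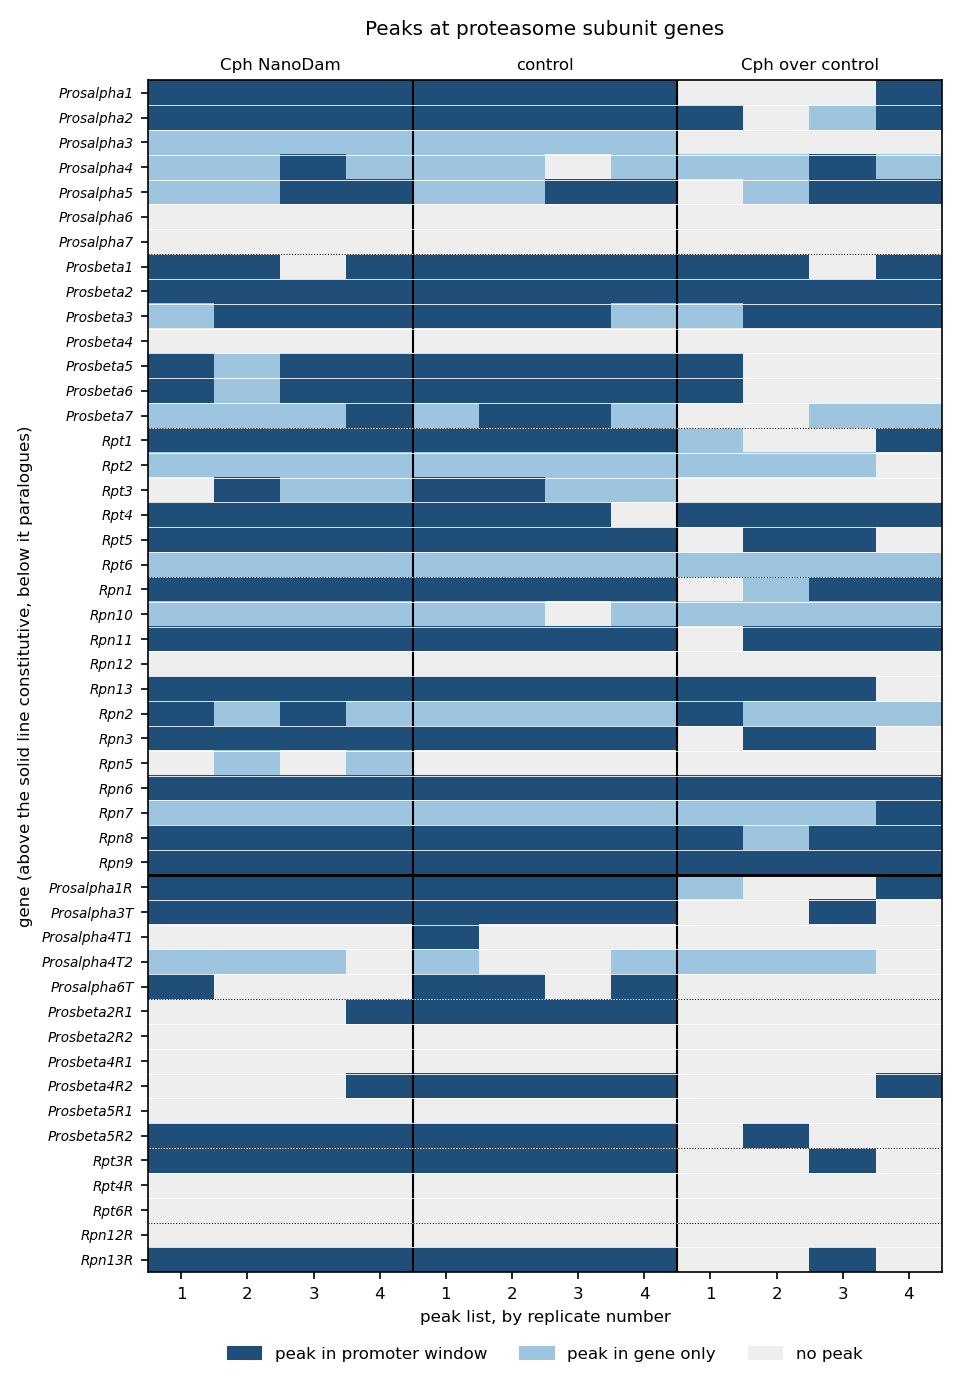
Peaks at the 48 proteasome subunit genes (rows, constitutive genes above the solid line and paralogues below it) in the 12 peak lists (columns, by replicate number: Cph NanoDam, control, and Cph over control), coloured by whether a promoter window or only the rest of the gene held a peak. In the Cph-over-control columns, 11 constitutive genes and 0 paralogues have a peak in all 4 replicates.

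No peak in a promoter window or gene was called in any of the 12 lists at 10 of 48 members, against 16.0% of all genes and 21.1% of those no longer than the longest member, so the members lay near the share of the short genes. Among them were 4 constitutive genes, namely *Prosalpha6* and *Prosalpha7* of the alpha ring, *Prosbeta4* of the beta ring and the lid subunit gene *Rpn12*. The other 6 were the paralogues *Prosbeta2R2*, *Prosbeta4R1*, *Prosbeta5R1*, *Rpn12R*, *Rpt4R* and *Rpt6R*. Only DNA with GATC can be methylated by Dam, and the promoter windows of *Rpn5*, *Rpn10* and *Rpt6R* hold no GATC. None of these 3 genes had a promoter peak in any library. Over all genes with 1 transcription start and no GATC in the window (641 genes), 91.4% had no promoter peak in any of the 8 libraries and 0.936% had one in all 8. Among genes with 1 transcription start, promoter peaks in all 8 libraries were called at 24.8% of those with 1 or 2 sites, 39.1% with 3 or 4, 43.8% with 5 to 8 and 41.6% with 9 or more. The windows held a median of 4 sites in the 17 members with a promoter peak in all 8 libraries and of 3 in the 17 with none. At the members, the edges of peaks lay a median of 9 bp from a GATC.

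Many constitutive genes start close to a neighbour. The promoter window held the start of another protein-coding gene at 21 of 32 constitutive genes (65.6%), 3 of 16 paralogues (18.8%) and 34.4% of all genes. A promoter peak at such a gene may be counted for both neighbours. Promoter peaks in all 8 libraries were called at 8 of the 21 constitutive genes with such a neighbour (38.1%) and at 4 of those without (36.4%), against 48.3% and 33.6% of all genes with and without one.

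Around the starts, peaks of constitutive genes lay mainly downstream. Between 500 and 1000 bp downstream of the 5′-most start, an average of 43.1% ± 5.58 of the constitutive genes were in a peak at a given distance in Cph libraries and 43.3% ± 2.49 in control libraries (SD, n = 4 each), against 23.4% and 25.6% of all genes. In the 500 bp upstream of the start the averages were 8.33% ± 2.81 in Cph libraries and 9.97% ± 0.702 in control libraries, against 12.5% and 14.9% of all genes. Both genotypes had a low upstream and a high downstream of the start, and their ranges over libraries overlapped in both intervals. In the adjoining intervals the ranges of constitutive genes did not overlap. From the start to 500 bp downstream the share was 21.3% to 27.5% in Cph libraries and 28.6% to 33.5% in control libraries, against means of 21.6% and 24.2% of all genes. Between 1000 and 500 bp upstream it was 21.4% to 25.02% in Cph libraries and 15.8% to 20.6% in control libraries, against means of 17.3% and 19.1% of all genes, which were lower in Cph libraries. Over all genes the ranges of the genotypes overlapped in these adjoining intervals, which were not tested. In the Cph-over-control lists the downstream interval held 22.6% ± 6.33 of constitutive genes and 5.96% ± 2.24 of paralogues, against 12.4% of all genes (SD, n = 4). In the 500 bp upstream the same shares were 3.70% ± 1.96 of constitutive genes and 0% of the 16 paralogues, against 5.67% of all genes. Genes of different length, and genes with and without the start of a neighbour close by, were not matched in these averages.

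**Figure D2:**
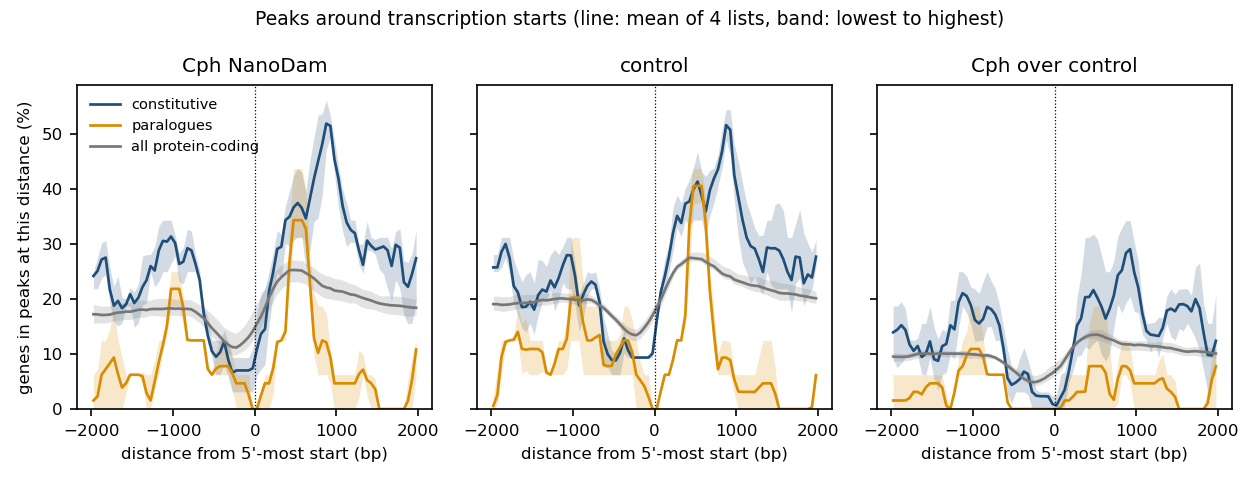
Share of genes in a peak (%) by distance from the 5′-most transcription start (bp), for constitutive genes, paralogues and all protein-coding genes, as the mean of 4 lists with a band from the lowest to the highest list. Constitutive genes dip to 8.33% upstream of the start in Cph libraries and reach 43.1% between 500 and 1000 bp downstream.

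Cph-over-control peaks in the promoter windows or the gene were called in all 4 replicates at 11 of 32 constitutive genes (34.4%) and 0 of 16 paralogues, against 37.8% of all protein-coding genes. Members are short, and among the 10150 genes no longer than the longest member (4500 bp) the share was 26.2%. In no replicate was such a peak called at 7 constitutive genes (21.9%) and 9 paralogues (56.2%), against 24.6% of all genes and 31.8% of the short ones. For peaks in all 4 replicates, the constitutive genes thus lay near the share of all genes and above that of the short ones. The paralogues lay below both, and these shares were not tested. Per list, 59.4% ± 2.55 of constitutive genes and 15.6% ± 6.25 of paralogues had such a peak, against 58.1% ± 4.22 of all genes and 48.4% ± 4.39 of short genes (SD, n = 4). With the promoter window alone, 4 constitutive genes (12.5%, *Prosbeta2*, *Rpn6*, *Rpn9* and *Rpt4*) and 0 paralogues had a peak in all 4 replicates, against 15.8% of all genes. An overlap of 1 base was enough for these counts, and one of 100 bp was not tried for them. In replicate 4 the peak at *Rpn10* covered only 0.528% of its promoter windows and gene. At *Rpt4* the peaks lay in the promoter window and not in the gene. The 11 genes included 6 of 12 non-ATPase genes, 2 of 6 ATPase genes, 2 of 7 beta subunit genes and 1 of 7 alpha subunit genes. These sets differ in median length, at 1984.5, 1685.5, 1019 and 1219 bp in the same order, and were not matched for it. Leaving out replicate 4, 1 paralogue had a peak in all the other replicates, *Prosalpha4T2*, a paralogue of the alpha subunit gene *Prosalpha4*, which had one in replicates 1 to 3.

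The 11 genes differed in the height of their strongest Cph-over-control peak, given here as the fold enrichment (the pileup of the Cph library over the local background that the caller took from the control) in replicates 1 to 4. In the core particle, *Prosbeta2* (chromosome 3L, 14999951 to 15001319) had 1.28, 1.42, 1.54 and 1.62-fold. *Prosbeta3* (3R, 9005313 to 9006226), which encodes a beta subunit without a proteolytic site, had 1.45, 1.59, 1.71 and 1.39-fold. *Prosalpha4* (X, 16276270 to 16277587) had 1.45, 1.64, 1.73 and 1.41-fold. All these values lay at or below percentile 20.8 of the genes with a peak in the same list. Of the ATPases, *Rpt4* (X, 6289470 to 6291245) had 2.12, 2.06, 1.97 and 1.89-fold. *Rpt6* (X, 21316052 to 21317663) had 2.15, 1.85, 2.35 and 1.76-fold. The ATPase values of both genes exceeded every value of the 3 core genes.

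Of the non-ATPase genes, the ubiquitin receptor gene *Rpn10* (3L, 21537000 to 21538582) had the lowest mean, with 1.58, 1.80, 1.44 and 1.39-fold. The base subunit gene *Rpn2* (3R, 29153524 to 29157255) had 1.498, 1.64, 2.59 and 2.55-fold. The lid subunit gene *Rpn7* (3R, 22460662 to 22462054) had 1.69, 1.72, 2.17 and 2.06-fold, so replicates 3 and 4 were higher than 1 and 2 at both. *Rpn9* (3R, 23731375 to 23733462), also of the lid, had 2.02, 2.18, 2.51 and 1.96-fold, the highest mean of the 11 at 2.17 ± 0.246 (SD, n = 4). *Rpn6* of the lid had 2.76, 1.81, 1.76 and 1.84-fold. *Rpn8* had 1.75, 1.74, 2.53 and 2.00-fold. In both, 1 replicate stood above the other 3. The median of all genes with a peak was 1.825, 2.21, 2.27 and 2.00-fold in the same lists, so *Rpn9* and *Rpt4* lay between percentile 30.9 and 71.1 of their lists. None of the 11 had a peak of at least 2-fold in all 4 lists. A Cph-over-control peak did not always go with a higher promoter pileup scaled to the reads of each library. At *Prosbeta2* this pileup was 3.66, 5.02, 4.55 and 3.69 in Cph libraries, against 3.81, 5.47, 4.31 and 4.31 in control libraries. It was lower in Cph in replicates 1, 2 and 4 and higher in replicate 3. At *Rpn6*, *Rpn8* and *Rpn9* its log2 difference, Cph over control, was positive (0.25, 0.16 and 0.43). The cause was not tested.

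**Figure D3:**
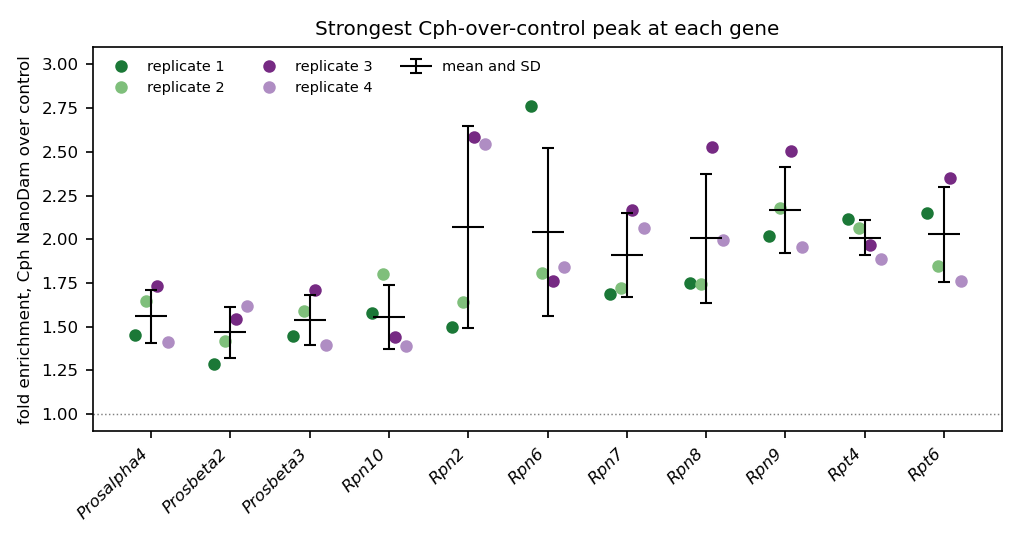
Fold enrichment of the strongest Cph-over-control peak (linear axis) at the 11 constitutive genes with such a peak in all 4 replicates, with a point per replicate and the mean and SD (n = 4). Means run from 1.47-fold at *Prosbeta2* to 2.17-fold at *Rpn9*, and every point lies below 2.8.

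At 10 of the 11 genes, 31.2% of the constitutive ones, the Cph-over-control peaks of the 4 replicates had bases in common, against 30.5% of all genes and 21.3% of the short ones. At *Rpn2* the peaks of the 4 lists shared no base. The shared stretches were 127 to 526 bp long. All shared stretches lay in peaks over the control in every replicate, and those of 3 genes are shown as examples. They were read 5′ to 3′ on the strand of the gene from the release 6 genome (RefSeq). In *Prosalpha4* the shared stretch (chrX:16277064-16277247, plus strand) lay 794 to 977 bp after the start and was all coding sequence. In *Prosbeta2* (chr3L:15000325-15000494, plus strand) it lay 374 to 543 bp after the start, with 55 bp of coding sequence and 115 bp of intron. The stretch nearest to *Rpt4* (chrX:6291553-6291761, minus strand) lay from -516 to -308 bp, upstream of the gene and within the coding sequence of its neighbour *mldr*. Capitals mark GATC and the antioxidant response element on either strand, neither of which occurs in the stretch near *Rpt4*.
Prosalpha4: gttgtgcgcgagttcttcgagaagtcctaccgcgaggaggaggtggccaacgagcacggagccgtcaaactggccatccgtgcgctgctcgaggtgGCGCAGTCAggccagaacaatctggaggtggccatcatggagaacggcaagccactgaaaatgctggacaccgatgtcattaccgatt
Prosbeta2: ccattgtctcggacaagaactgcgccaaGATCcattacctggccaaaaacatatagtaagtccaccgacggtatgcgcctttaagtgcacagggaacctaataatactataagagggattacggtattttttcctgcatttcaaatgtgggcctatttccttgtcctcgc
Rpt4: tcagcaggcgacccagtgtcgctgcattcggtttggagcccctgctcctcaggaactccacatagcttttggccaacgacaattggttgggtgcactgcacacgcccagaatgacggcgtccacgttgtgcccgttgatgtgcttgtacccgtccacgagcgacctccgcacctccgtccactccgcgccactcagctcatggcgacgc

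The other shared stretches lay in coding sequence for the most part. The stretch of *Rpn7* (428 bp) and that of *Rpn6* (424 bp) were all coding, and *Rpn9* had 320 of 526 bp in coding sequence. At *Rpt6* the stretch (209 bp) lay at the end of the gene and overlapped *CG1801*, and at *Prosbeta3* (503 bp) it overlapped *CG11980*. The stretch of *Rpn8* (215 bp) overlapped *Slik*, with 150 bp in coding sequence and 65 bp in intron. At *Rpn10*, 116 of 127 bp lay between genes, beyond its 3′ end. Over these 10 stretches, GATC was present in 7, the antioxidant response element TGACNNNGC in 4, TGACCA in 1 and TATCGATA in 0. The same letters were found in 48.4%, 12.5%, 18.4% and 0.498% of the 6826 stretches of 127 to 526 bp that were shared by all 4 replicates anywhere on the named chromosomes. Within that range the stretches were not matched for length, and these shares were not tested.

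The share of the promoter windows and gene that lay in peaks, in the lists called without a control, was compared between genotypes with a two-sided exact permutation test. Of 11709 genes tested, 0 passed after Benjamini-Hochberg adjustment (0%, smallest adjusted p = 0.368). At an unadjusted p below 0.05, 6.01% of genes were lower in Cph NanoDam and 1.76% higher. Of 38 members tested, 0 passed after adjustment, 0 were lower and 1 higher at the unadjusted threshold. The design cannot give a p below 0.0286. For an adjusted p below 0.05, most of the genes tested would have to reach that value. Only 910 genes had an unadjusted p below 0.05, so the adjusted test could not call a gene here. Its 0 does not show that the genotypes were alike. The median difference, Cph NanoDam minus control, was -0.413 percentage points over the members and -1.22 over all genes tested.

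*Rpt4* was the member at that smallest p. Its share was 8.48% in all 4 Cph libraries, against 6.72%, 6.94%, 5.32% and 0% in the control libraries, so the groups did not overlap. The difference was 3.73 percentage points (exact permutation p = 0.0286, adjusted p = 0.368). In each of the 4 Cph libraries the upstream peak ran over the same 266 bp, and in the control libraries with a peak it was 226, 231 and 194 bp long. The size of the difference rested on control replicate 4, the only library with no peak there. On limma's arcsine scale the difference was 0.105 with all libraries and 0.0416 without replicate 4 (limma adjusted p = 0.471 and 0.516).

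With all peaks and libraries, the 3 largest differences were those of beta subunit genes. *Prosbeta1*, with the caspase-like site, had a share of 30.7%, 30.7%, 0% and 62.8% in Cph libraries, against 30.7%, 64.5%, 64.5% and 62.7% in control libraries. *Prosbeta5*, with the chymotrypsin-like site, had 56.5%, 3.88%, 55.8% and 63.9% in Cph libraries, against 64.1%, 66.7%, 63.4% and 62.4% in control libraries. At *Prosbeta5* only Cph replicate 2 was far lower, whereas at *Prosbeta1* 3 Cph libraries and control replicate 1 lay at or below 30.7%. The groups overlapped at both genes, with differences of -24.5 (exact permutation p = 0.20) and -19.2 (exact permutation p = 0.0857) percentage points. With the same number of peaks per list the difference at *Prosbeta1* was -8.83 percentage points, smaller in size than that of the paralogue *Prosbeta2R1* (-9.41). On limma's arcsine scale it was -0.319 with all libraries and -0.114 without replicate 3, and that of *Prosbeta5* was -0.224 with all libraries and -0.0468 without replicate 2. *Prosbeta6*, without a proteolytic site, had 40.8%, 26.4%, 41.3% and 41.5% in Cph libraries, against 37.2%, 57.9%, 62.2% and 63.2% in control libraries. Its groups overlapped through control replicate 1 (difference -17.6 percentage points, exact permutation p = 0.114). In the other direction, *Prosalpha4* had 22.9%, 28.3%, 52.5% and 13.2% in Cph libraries, against 25.9%, 26.4%, 0% and 16.7% in control libraries (difference 11.99, exact permutation p = 0.400), and its groups overlapped too. Adjusted p-values of these 4 genes were 0.538 to 0.828.

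**Figure D4:**
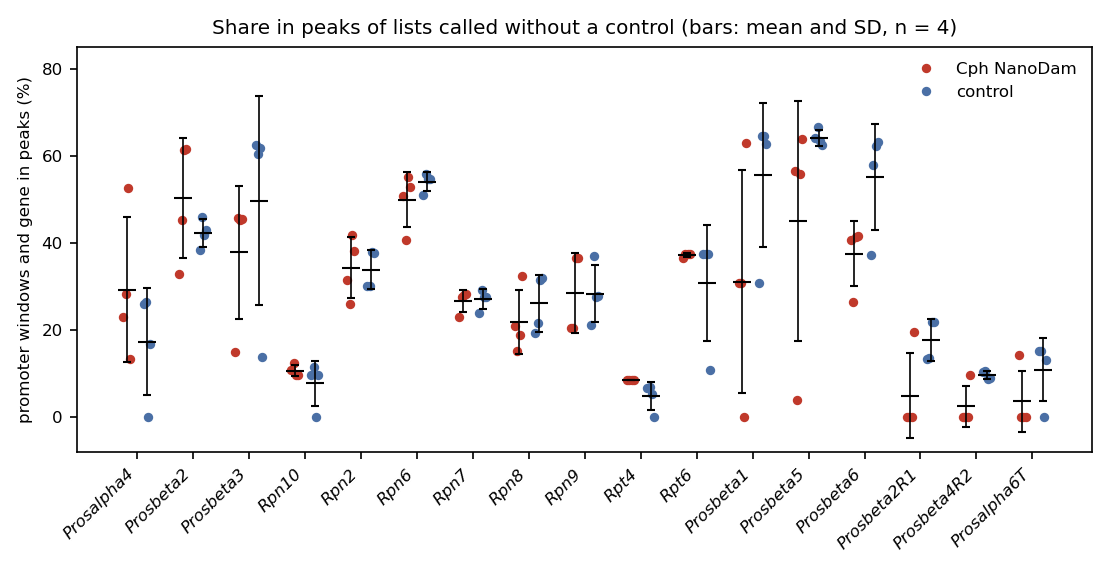
Share of the promoter windows and gene in peaks (%) in the lists called without a control, a point per library (Cph NanoDam left, control right) with the mean and SD (n = 4), for genes with Cph-over-control peaks in all 4 replicates, genes with the largest differences and 2 further paralogues. *Rpt4* lies at 8.48% in all 4 Cph libraries, above its control libraries, and the groups of *Prosbeta1*, *Prosbeta5* and *Prosbeta6* overlap.

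Some paralogues had peaks mainly in control libraries. *Prosbeta2R1* (X, 5808954 to 5810158), a paralogue of *Prosbeta2*, had a share of 0%, 0%, 0% and 19.4% in Cph libraries, against 13.3%, 13.5%, 21.8% and 21.8% in control libraries. *Prosbeta4R2* (2L, 2655394 to 2657102), a paralogue of *Prosbeta4*, had 0%, 0%, 0% and 9.60% in Cph libraries, against 10.2%, 10.5%, 8.78% and 8.96% in control libraries. At both, only Cph replicate 4 had a peak and it overlapped the control values (exact permutation p = 0.0857, adjusted p = 0.538 for each). *Prosalpha6T* had 14.1%, 0%, 0% and 0% in Cph libraries, against 15.1%, 15.1%, 0% and 13.0% in control libraries (exact permutation p = 0.257). Over the 16 paralogues, 35.9% ± 5.98 had a promoter peak per Cph library and 50% ± 5.10 per control library (SD, n = 4 each). The same shares were 55.5% ± 4.69 and 56.25% ± 4.42 for constitutive genes, and 51.2% ± 2.88 and 53.9% ± 1.01 for all genes. With all libraries, limma on the arcsine square root of the share called neither *Prosbeta2R1* (adjusted p = 0.274) nor *Prosbeta4R2* (adjusted p = 0.246). Without replicate 4, which held the only Cph peaks at both genes, every Cph value was 0%, and both passed (adjusted p = 0.0106 and 0.00187), against 0.885% of all genes called lower in that fit.

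The 5 paralogues with a promoter peak in all 8 libraries were *Prosalpha1R*, *Prosalpha3T*, *Prosbeta5R2*, *Rpn13R* and *Rpt3R*. *Prosalpha3T* had a share of 33.8%, 47.9%, 47.1% and 47.1% in Cph libraries, against 47.1%, 47.1%, 47.1% and 48.5% in control libraries. *Rpn13R* had 18.2%, 22.4%, 17.4% and 17.8% in Cph libraries, against 19.6%, 20.2%, 15.6% and 16.1% in control libraries. *Prosbeta5R2* had 10.6%, 12.2%, 11.9% and 12.2% in Cph libraries, against 12.9%, 11.4%, 10.4% and 13.96% in control libraries. The groups overlapped at these 3 genes. *Rpt3R* had 27.7%, 30.1%, 29.8% and 28.0% in Cph libraries, against 29.7%, 10.7%, 16.8% and 27.5% in control libraries. Its groups overlapped through control replicate 1.

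The height of the promoter peaks was compared as the pileup (reads stacked in the peak) per 1000000 reads of the library, over 5403 genes with a promoter peak in all 8 libraries. limma called 0 of the 17 members tested at an adjusted p below 0.05. Over all genes it called 0.315% higher and 0.037% lower in Cph NanoDam (17 and 2 genes), and with each library centred on its median 35 higher and 21 lower. With the replicate number as a block it called 4.94% of genes (267), again without a member. The median log2 difference, Cph NanoDam over control, was 0.11 over all genes and -0.08 over the members. Since the median of all genes was above 0, the members' values are to be read relative to it.

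An unadjusted p below 0.05 was found for 3 members, all lower in Cph NanoDam, and over all genes for 5.09% lower and 12.6% higher. The members were *Rpt3R* and the pair *Prosalpha1* and *Prosalpha1R*, whose values cannot be told apart, as described below. *Rpt3R* (3R, 9754735 to 9756510), a paralogue of the ATPase gene *Rpt3*, had 4.84, 3.98, 5.79 and 5.82 in Cph libraries, against 6.799, 8.24, 9.34 and 7.79 in control libraries. Its groups did not overlap, and the log2 difference was -0.66 (SE 0.205, limma adjusted p = 0.135, and 0.0616 with the replicate block). *Prosalpha1R* had 9.62, 5.87, 6.73 and 10.2 in Cph libraries, against 13.4, 11.3, 12.7 and 9.75 in control libraries, with overlap (log2 difference -0.57, SE 0.232, limma adjusted p = 0.232). *Prosalpha1* differed by -0.56 on the log2 scale (SE 0.243, limma adjusted p = 0.261). Groups also did not overlap at *Prosalpha2*, which had 7.64, 7.23, 7.38 and 7.55 in Cph libraries, against 8.46, 8.97, 7.68 and 7.64 in control libraries (log2 difference -0.13, SE 0.175, limma adjusted p = 0.741). The highest Cph value and the lowest control value of *Prosalpha2* were equal after rounding. Thus 2 of the 17 members lay lower in every Cph library and 0 higher, against 3.72% and 6.89% of all genes tested.

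The values of *Prosalpha1* and *Prosalpha1R* cannot be told apart. The genes are neighbours on chromosome arm 2R, and 0% of their stretches of 50 bp or of 86 bp, the read length, are unique in the genome. Per the study's methods only uniquely mapped reads were kept, yet peaks were called at both genes in all 8 libraries. How reads were placed on the pair is not known, so the pileups, differences and p-values of both genes are uncertain. Without this pair, promoter peaks in all 8 libraries were called at 11 constitutive genes and 4 paralogues.

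Among the 17 members with a promoter peak in all 8 libraries, the highest promoter pileups in Cph libraries were those of regulatory particle genes. *Rpn3* had 15.4, 19.8, 31.0 and 15.2 in Cph libraries, against 11.97, 13.1, 14.6 and 26.9 in control libraries. *Rpn11* had 12.6, 22.3, 20.3 and 16.3 in Cph libraries, against 14.4, 11.9, 12.8 and 14.4 in control libraries. At both genes the groups overlapped, and limma gave log2 differences of 0.31 (SE 0.306, adjusted p = 0.649) and 0.39 (SE 0.22, adjusted p = 0.378). *Rpn9* had 11.9, 19.2, 12.7 and 9.85 in Cph libraries, against 11.4, 10.5, 8.27 and 8.76 in control libraries. *Rpn1* had 7.94, 11.9, 22.3 and 18.6 in Cph libraries, against 10.3, 13.1, 21.2 and 17.3 in control libraries, so replicates 3 and 4 of both genotypes were higher. *Rpt5* had 7.88, 13.1, 19.8 and 11.1 in Cph libraries, against 11.8, 9.64, 20.9 and 19.1 in control libraries. Groups overlapped at these 3 genes as well, with adjusted p from 0.368 to 0.928. Within the pairs of Cph and control libraries of the same number, *Rpn9* was higher in Cph in all 4 (limma adjusted p = 0.193 with the replicate block). Of the 17 members, 3 were higher in Cph in all 4 pairs (*Rpn6*, *Rpn9* and *Rpn13*) and 2 lower (*Prosalpha2* and *Rpt3R*), against 19.8% of all 5403 genes tested higher and 12.9% lower. With each library centred on its median over all genes tested, 1 member was higher in all 4 pairs (*Rpn9*) and 6 were lower, against 17.3% and 19.3% of all genes. The 6 were *Prosalpha1*, *Prosalpha1R*, *Prosalpha2*, *Prosalpha3T*, *Prosbeta5R2* and *Rpt3R*. Among them, *Prosalpha1* and *Prosalpha1R* cannot be told apart, so they are not separate results.

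The lowest mean promoter pileups in Cph libraries among the 17 were those of *Prosbeta2*, *Rpn8* and 3 paralogues. Of these paralogues, *Rpt3R* had a higher mean in control libraries (8.04) than *Rpn6* (7.34). *Prosbeta2* had 3.66, 5.02, 4.55 and 3.69 in Cph libraries, against 3.81, 5.47, 4.31 and 4.31 in control libraries. *Rpn8* had 4.85, 7.33, 6.85 and 5.87 in Cph libraries, against 5.39, 7.35, 4.87 and 4.69 in control libraries. *Rpn13R* had 3.32, 3.66, 6.54 and 4.25 in Cph libraries, against 4.80, 3.32, 4.94 and 7.30 in control libraries. The groups overlapped at all 3 genes. *Prosbeta5R2* had 3.13, 4.27, 7.93 and 6.43 in Cph libraries, against 4.62, 4.23, 10.4 and 8.50 in control libraries, higher in replicates 3 and 4 of both genotypes. *Rpt4*, not tested since control replicate 4 had no peak, had 16.1, 22.1, 19.3 and 17.0 in Cph libraries, against 15.2, 17.5 and 15.6 in control replicates 1 to 3. *Prosbeta6*, whose promoter peak was missing in Cph replicate 2, had 7.09, 22.7 and 18.7 in Cph replicates 1, 3 and 4, against 6.97, 14.2, 15.9 and 15.9 in control libraries. The values of *Rpt4* lay in the range of those of *Rpn3* and *Rpn11*, whereas those of *Prosbeta6* in replicate 1 of both genotypes were lower than any of the 5 genes with the highest pileups.

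**Figure D5:**
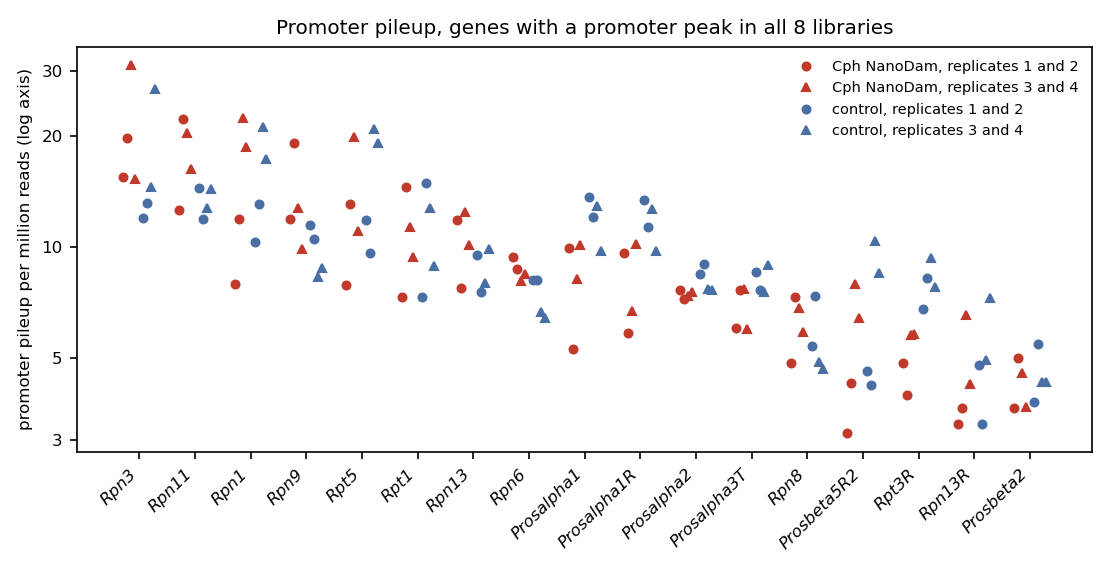
Promoter pileup per 1000000 reads (log axis) of the 17 members with a promoter peak in all 8 libraries, ordered by their mean in Cph libraries, a point per library (Cph NanoDam left, control right, circles for replicates 1 and 2 and triangles for 3 and 4). The groups do not overlap at *Rpt3R* and, narrowly, *Prosalpha2*, where control values lie higher, and overlap at *Rpn3*, *Rpn11* and *Rpn1*.

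The remaining members with few promoter peaks had them elsewhere in the gene. *Rpt6* had no promoter peak in any library but a share in peaks of 36.6%, 37.5%, 37.5% and 37.5% in Cph libraries, against 37.5%, 37.5%, 37.5% and 10.7% in control libraries. *Rpn7* had 22.9%, 27.6%, 28.1% and 28.2% in Cph libraries, against 23.9%, 29.2%, 27.6% and 27.6% in control libraries. *Prosalpha3* had 14.2%, 18.0%, 13.5% and 13.8% in Cph libraries, against 15.5%, 16.1%, 11.8% and 12.2% in control libraries. The groups overlapped at each of them.

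*Prosbeta3* had a share of 14.9%, 45.8%, 45.2% and 45.4% in Cph libraries, against 62.6%, 60.5%, 61.9% and 13.8% in control libraries. *Prosbeta7*, a beta subunit gene without a proteolytic site, had 24.2%, 17.7%, 31.0% and 33.9% in Cph libraries, against 25.4%, 53.8%, 48.1% and 22.3% in control libraries. At both the groups overlapped and the control libraries were far apart. Of the ATPase genes, *Rpt2* had 17.9%, 19.9%, 19.9% and 14.6% in Cph libraries, against 18.4%, 19.1%, 17.6% and 17.2% in control libraries. *Rpt3* had 0%, 11.4%, 12.2% and 12.4% in Cph libraries, against 13.7%, 14.2%, 10.8% and 11.2% in control libraries. Both ATPase genes overlapped between genotypes.

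*Rpn2* had a share of 31.5%, 25.9%, 41.8% and 38.1% in Cph libraries, against 29.99%, 29.99%, 37.8% and 37.6% in control libraries. *Rpn10* had 10.7%, 12.3%, 9.60% and 9.60% in Cph libraries, against 9.60%, 11.5%, 0% and 9.60% in control libraries. The groups overlapped at both. *Rpn5*, a lid subunit gene, had 0%, 9.62%, 0% and 17.7% in Cph libraries, against 0% in all 4 control libraries. Its peaks were called in 2 of 4 Cph libraries and in no control library (exact permutation p = 0.429, adjusted p = 0.828).

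Related genes outside the rule came from a list of 20 names written from knowledge of the pathway, of which 19 matched the annotation. Promoter peaks in all 8 libraries were called at 12 of 19, and in none at 4 (*REG*, *Pomp*, *Ubi-p63E* and *Sem1*), against 38.7% and 34.9% of all genes. Cph-over-control peaks in all 4 replicates were called at 8 of 19, against 37.8% of all genes. *cnc*, the transcription factor known to raise proteasome gene expression in flies, and its inhibitor *Keap1* were among the 8. At 41132 and 6004 bp both genes are longer than the longest member, and this list was not matched for length. None of the 12 tested by limma for promoter pileup passed. *Pngl*, a cytoplasmic peptide N-glycanase, had a promoter peak in 4 of 4 Cph and 0 of 4 control libraries, and its share in peaks was 20.4% ± 0.453 in Cph libraries and 8.36% ± 6.07 in control libraries (SD, n = 4 each, exact permutation p = 0.0286, adjusted p = 0.368). It was the only 1 of the 19 with an unadjusted p below 0.05, against 1.76% of all genes tested higher and 6.01% lower in Cph NanoDam. The share of all genes with promoter peaks in 4 Cph and 0 control libraries was not counted.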

How the data were processed

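Cph NanoDam and NanoDam-only control libraries (4 each, single-end 86 bp reads) were grouped by their labels. The authors trimmed reads with Trim Galore 0.6.10, aligned them with Bowtie2 2.5.4 to BDGP6 with at most 1 mismatch, kept uniquely mapped reads with SAMtools 1.20 and called broad peaks with MACS2 (q of 0.05, broad cutoff of 0.1, all duplicates kept). The labels' processing notes name MACS2 2.2.9.1, and the file headers name 2.1.4. The deposited lists give for each peak a pileup signal that is not scaled for depth, a fold enrichment (a ratio to the local background) and −log10 of the p-value and q-value. The filtered lists deposited beside them were not used here. Lists give no reads per position, so the depth behind a single site cannot be stated and no interval is attached. Replicates were not pooled.

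Genes and starts came from Ensembl release 115, and sequence from the release 6 genome (RefSeq). The members, gene lists and motifs were chosen with earlier results of these data known. The share in peaks was tested per gene over 70 arrangements of the libraries. Promoter pileup was scaled to 1000000 reads, log2-transformed and tested with limma 3.58.1 in R 4.3.3. Both were adjusted (Benjamini-Hochberg) over all genes tested at 0.05. The permutation test and limma were tested on simulated data. Values by library were given for members with Cph-over-control peaks in all 4 replicates and for the 5 largest differences in share. They were also given for the 5 highest and 5 lowest mean pileups in Cph libraries. The rest were paralogues with promoter peaks in at least 4 libraries and constitutive genes with fewer than 4. Python 3.11.15 was used elsewhere.

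Replicate numbers were taken as pairs, since same-numbered libraries had been set against each other in peak calling, and their deviations from the genotype means had correlations of 0.503, 0.415, 0.423 and 0.464 over 5403 genes. For replicates 3 and 4 the correlation across numbers (0.518 and 0.497) was as high, so there it may belong to the set of replicates.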

Additional observations from a re-analysis of the deposited data

Results flagged for a closer look

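In 22 of 91 groups of 4 libraries at the 35 members described by library, the highest or lowest library stood far from the other 3. Chance gives such a gap in about 1 in 20 groups, and groups in which the others are tied give it readily. Cph replicate 1 accounted for 7 of them, Cph replicate 2 for 6, Cph replicate 4 for 2, control replicate 4 for 4, control replicate 3 for 2 and control replicate 1 for 1.

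In Cph replicate 1 the share in peaks stood apart at *Prosbeta3* (14.9%, against 45.2% to 45.8% in the other Cph libraries), *Rpn1* (24.7%, against 45.5% to 49.6%), *Rpn7* (22.9%, against 27.6% to 28.2%), *Rpt3* (0%, against 11.4% to 12.4%), *Rpt6* (36.6%, against 37.5%), *Prosalpha3T* (33.8%, against 47.1% to 47.9%) and *Prosalpha6T* (14.1%, against 0%). In all but *Prosalpha6T* it was the lowest. In Cph replicate 2 it was lowest at *Prosbeta5* (3.88%, against 55.8% to 63.9%), *Prosbeta6* (26.4%, against 40.8% to 41.5%) and *Rpn11* (53.9%, against 60.0%), and highest at *Prosalpha3* (18.0%, against 13.5% to 14.2%), *Rpn13R* (22.4%, against 17.4% to 18.2%) and *Rpt5* (14.5%, against 11.1% to 11.6%). Cph replicate 4 was alone in having peaks at *Prosbeta2R1* (19.4%) and *Prosbeta4R2* (9.60%).

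In control replicate 4 the share was low at *Prosbeta3* (13.8%, against 60.5% to 62.6%) and *Rpt6* (10.7%, against 37.5%) and high at *Prosalpha3T* (48.5%, against 47.1%), and the promoter pileup of *Prosbeta2R1* was high (3.26 per 1000000 reads, against 2.74 to 2.82). Control replicate 3 had no peak at *Prosalpha6T* (0%, against 13.0% to 15.1%) and *Rpn10* (0%, against 9.60% to 11.5%), and control replicate 1 was low at *Prosbeta1* (30.7%, against 62.7% to 64.5%).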

How the results depend on the processing

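Depth per site is unknown, and 4 libraries per genotype limit precision. With windows of 250 bp and 1000 bp, promoter peaks in all 8 libraries were called at 7 and 22 constitutive genes, and with 250 bp at 1 paralogue. Over all genes the shares were 26.4% and 55.0%. Requiring 100 bp in peaks left 3 paralogues. With any replicate left out, 12 to 14 constitutive genes and 5 paralogues had them. With promoter windows alone, Cph-over-control peaks in all replicates were called at 4 constitutive genes, against 15.8% of all genes. They were called at 0 with a fold enrichment of at least 2, and at 12 to 14 with a replicate left out. Among paralogues the number was 1 with windows of 1000 bp and the gene, and 0 to 1 with a replicate left out (*Prosalpha4T2* without replicate 4). A base common to all 4 lists and the counts without the *Prosalpha1* pair were alternatives chosen after seeing the data. With only names ending exactly in T or R taken as paralogues (8 genes), the other paralogues were counted with the 32 constitutive genes. Promoter peaks in all 8 libraries were then called at 13 genes of this larger set, *Prosbeta5R2* among them. They were called at 4 of the 8 paralogues, against 38.7% of all genes. The share of all genes was not counted with 100 bp in peaks or with a fold enrichment of at least 2. Nor was it counted with a replicate left out, or with windows of 1000 bp and the gene. Those counts describe the members alone.

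For the share in peaks, 0 members were called under every alternative except 2 without replicate 4 (range 0 to 2). Alternatives that used the permutation test share its limit on the smallest p, so their 0 adds little. Over all genes limma called 156 and, with the replicate block, 98, against 0 by the permutation test, and 102 to 393 with a replicate left out. For promoter pileup 0 members were called under every alternative run, the replicate block included (0). Over all genes the 19 calls became 267 with the replicate block (0 members), 256 with the batch label as a block, 56 after centring, 0 by the exact permutation test (where 2 members had an unadjusted p below 0.05), 0 in replicates 1 and 2 alone, 707 in replicates 3 and 4 alone, and 0 to 467 with a library left out (467 without Cph replicate 1, 0 without control replicate 4). Of 262 alternatives over 20 single results, 254 kept direction and side of the threshold, 2 passed it and 6 changed direction. These were the arcsine share of *Prosalpha4* (-0.0208 without replicate 3, and up to 0.266 with another replicate left out) and the log2 pileups of *Prosbeta2* (-0.168 to 0.0194 with a library left out, 0.0194 without control replicate 2), *Rpn1* (0.0911 in replicates 3 and 4 alone, -0.305 to 0.191 with a library left out, 0.191 without Cph replicate 1 and 0.0845 without control replicate 3) and *Rpn8* (-0.0779 in replicates 1 and 2 alone). None of them had passed a threshold, and the cause was not tested.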
